A study of Mus musculus with 48 samples.

Results

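The genes described here are 28 genes of cholesterol synthesis and sterol regulation, taken by symbol from a fixed list out of the 50763 gene entries of each count table. They comprise 18 genes that encode enzymes of the route from acetyl-CoA to cholesterol, 5 genes of the SREBP system that controls those enzymes, and 5 genes of sterol transport, receptor turnover and the LXR system. All 28 were present in every table and all 28 passed the filter on low counts in each of the 4 mouse lines. Cells make cholesterol through mevalonate and isoprenoid intermediates to squalene, lanosterol and then a series of demethylations and reductions. When membrane sterol is low, Scap carries the transcription factors SREBP (genes Srebf1 and Srebf2) to the Golgi for activation, and they raise the synthesis genes; Insig proteins hold Scap back when sterol is plentiful. LXR, a nuclear receptor for oxysterols, raises genes of sterol export. In brain, where circulating cholesterol does not enter, astrocytes are a main source of cholesterol.

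RNA with poly-A tails was sequenced from primary mouse cells with a Cre-dependent BERKY3 biosensor, a luminescent reporter of an active G protein alpha subunit. Astrocytes came from mice heterozygous for the Gas*-BERKY3 allele, and lung fibroblasts from mice heterozygous for the Gai, Gaq or Ga13 version of it. These 4 lines are called Gas, Gai, Gaq and Ga13 below. Each line had 4 groups of 3 libraries: stimulated with agonist after the Cre virus, stimulated after the empty virus, unstimulated after the Cre virus, and unstimulated after the empty virus, 48 libraries in all. Stimulated astrocytes had 1 µM isoproterenol, an agonist of beta-adrenergic receptors, for 90 min. Stimulated fibroblasts had 100 µM TRAP-6, a peptide agonist of the thrombin receptor PAR1, for 90 min, while unstimulated cells had fresh medium. The adeno-associated virus AAV2/1-CMV-Cre turned the biosensor on, with Cre driven by the CMV promoter, which is not specific to a cell type. The control virus carried no Cre and left the biosensor off. Astrocytes were seeded at 430000 cells per well with virus diluted 500-fold, and fibroblasts at 160000 cells per well with virus diluted 1000-fold. Every animal carried a biosensor allele, and the effects of Cre and of the biosensor cannot be told apart.

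Library totals ranged from 15.6 M to 42.6 M counts (M, 1000000 counts), with a median of 19.3 M. Levels are given as CPM, counts per 1000000 counts of the library. Agonist action was checked with Fos, an immediate early gene, which averaged 505 ± 19.4 CPM in stimulated and 73.9 ± 6.14 CPM in unstimulated Gas cells given Cre (SD, n = 3 each). Fos group means in the fibroblast lines were 35.5 to 61.8 CPM with TRAP-6 and 23.2 to 41.3 CPM without it. In Gai the libraries overlapped, at 35.8 to 72.6 CPM with TRAP-6 and 25.7 to 50.7 CPM without it. In Gaq they overlapped slightly, with the lowest stimulated library at 40.46 CPM and the highest unstimulated one at 40.59 CPM. In Ga13 they did not overlap. Summed over 10 astrocyte markers, Gas libraries held 9724 to 10769 CPM and none of the markers was at 0. Summed over 9 fibroblast markers, the fibroblast libraries held 27825 to 48713 CPM and Gas libraries 1553 to 1985 CPM, with 1 of the 9 at 0 in Gas. The astrocyte markers summed to 172 to 303 CPM in the fibroblast libraries. Labels name replicates by number, with no animal or culture, and the p-values therefore reflect only how far these samples scatter, which can be technical.

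Promoter sequence is shown for 2 members that rose and 4 that fell with isoproterenol, since genes of 1 route moved in opposite directions there. They were chosen by their step in the route after the values were seen; Mylip, Acat2, Hsd17b7, Dhcr7 and Msmo1, which fell more than some of those shown, are not printed, and Stard4, with the largest fall, had no window in the table. Mvk and Pmvk encode the kinases of adjoining steps and rose. Hmgcs1, Lss and Sc5d encode enzymes before and after those steps and fell, as did Insig1, the sterol-sensing retention factor. The 200 bases before the RefSeq start of each gene are given 5′ to 3′ on the gene's strand in build GRCm38.p6. Capitals mark every match, on either strand, to the sterol regulatory element core TCACNCCAC, the NF-Y box CCAAT or the short cAMP response element TGACG.
Mvk (chr5:114444069-114444268, + strand): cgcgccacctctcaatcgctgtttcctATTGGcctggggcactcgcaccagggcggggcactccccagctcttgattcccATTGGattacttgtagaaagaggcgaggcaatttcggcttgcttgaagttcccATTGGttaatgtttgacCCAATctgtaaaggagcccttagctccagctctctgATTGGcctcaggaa
Pmvk (chr3:89454341-89454540, + strand): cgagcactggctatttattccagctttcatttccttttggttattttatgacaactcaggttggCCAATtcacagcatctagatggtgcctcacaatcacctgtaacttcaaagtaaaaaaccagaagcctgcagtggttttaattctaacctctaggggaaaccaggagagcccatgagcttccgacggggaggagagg
Hmgcs1 (chr13:119690151-119690350, + strand): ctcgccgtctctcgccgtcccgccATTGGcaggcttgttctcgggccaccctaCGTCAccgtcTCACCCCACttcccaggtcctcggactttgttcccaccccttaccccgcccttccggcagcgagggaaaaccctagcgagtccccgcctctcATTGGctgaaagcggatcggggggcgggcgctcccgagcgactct
Lss (chr10:76531405-76531604, + strand): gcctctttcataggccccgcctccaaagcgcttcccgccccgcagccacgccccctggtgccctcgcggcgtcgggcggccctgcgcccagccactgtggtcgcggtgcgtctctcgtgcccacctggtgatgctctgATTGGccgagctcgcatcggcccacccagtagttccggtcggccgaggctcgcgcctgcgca
Sc5d (chr9:42264301-42264500, - strand): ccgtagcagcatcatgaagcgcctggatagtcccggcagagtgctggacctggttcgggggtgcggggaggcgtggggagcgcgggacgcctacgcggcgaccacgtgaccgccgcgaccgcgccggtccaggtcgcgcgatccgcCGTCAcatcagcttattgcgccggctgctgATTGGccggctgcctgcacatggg
Insig1 (chr5:28071212-28071411, + strand): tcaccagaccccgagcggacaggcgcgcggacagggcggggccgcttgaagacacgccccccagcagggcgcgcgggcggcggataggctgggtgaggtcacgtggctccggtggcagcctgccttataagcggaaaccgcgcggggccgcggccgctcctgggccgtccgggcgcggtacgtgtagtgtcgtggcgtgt

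The Mvk stretch held 5 NF-Y boxes and Hmgcs1 held 2, while Pmvk, Lss and Sc5d held 1 each and Insig1 held 0. Matches outside the 200 bases shown are not in these counts. Insig1 had an NF-Y box at -216 and a TGACG match at -240 from its start. Hmgcs1 had further NF-Y boxes at -237 and 11. Hmgcs1 was the only one of these stretches with the sterol regulatory element core. For Pmvk the RefSeq table holds 2 windows, and the first is shown. The Pmvk count is for that window alone, and which start these cells used was not tested. Windows of 300 bases, 250 before and 50 after the start, were matched for 23 of the 28 members, all but Fdps, Fdft1, Sqle, Stard4 and Abcg1. On either strand, CCAAT was found in 19 of the 23 members (82.6%) and in 41.1% of the 27025 genes in the table. The GC box GGGCGG was found in 21 of the 23 (91.3%) and in 38.2% of all genes, and the short element TGACG in 10 of the 23 (43.5%) and in 23.0% of all genes. The full cAMP response element TGACGTCA, which contains the short element, was in 0 of the 23 and in 2.03% of all genes. The core TCACNCCAC was in 1 member (4.35%), Hmgcs1, and in 1.44% of all genes. All genes here are those with a window, whether or not they were expressed in these cells, while the members were all expressed. A gene with more than 1 window counted if any window held the match. These are matches of letters in a window and say nothing of binding.

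In astrocytes given isoproterenol, most of the sterol genes fell modestly while the kinases Mvk and Pmvk rose strongly. Of the 28 genes, 16 fell and 3 rose (edgeR quasi-likelihood test, Benjamini-Hochberg adjusted p under 0.05, mean over both viruses), where 23.3% of all 18103 genes tested were called, 11.5% lower and 11.7% higher. The median log2 change of the members was -0.17, against -0.0037 for all genes tested. Separately by virus, 17 of the 28 were called with Cre and 14 with the empty virus, where 14.3% and 14.7% of all genes were called. In CPM, 14 members lay lower in all 6 stimulated libraries than in any of the 6 unstimulated ones (8.94% of all genes) and 2 lay higher (5.72% of all genes). In bulk RNA, fewer cells of a type and less RNA per cell cannot be told apart.

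**Figure D1:**
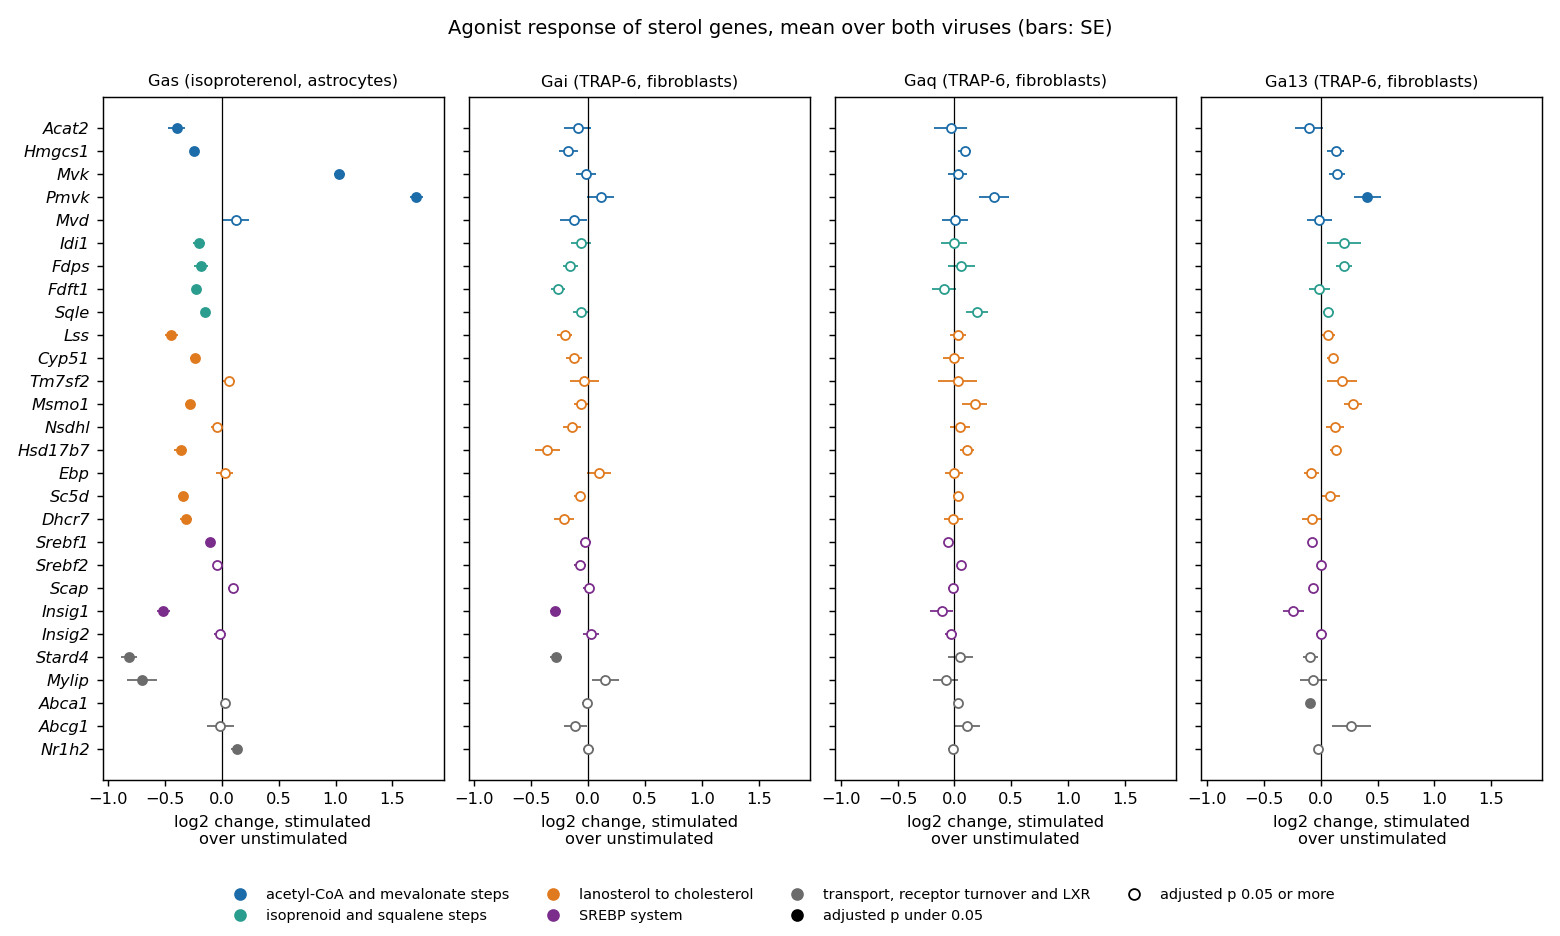
Log2 change with agonist over without, mean over both viruses (x axis, bars are SE), for the 28 genes (y axis, coloured by role) in each line; filled points had an adjusted p under 0.05. In Gas, Pmvk at 1.71 and Mvk at 1.03 stand far right of the other genes, 16 filled points lie left of 0, and the fibroblast panels hold 4 filled points in all.

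Among the 5 genes of the acetyl-CoA and mevalonate steps, 2 rose and 2 fell. Pmvk, phosphomevalonate kinase, had 122, 126 and 151 CPM in stimulated libraries with Cre and 146, 135 and 143 CPM in stimulated libraries with empty virus. Its unstimulated levels were 47.9, 42.2 and 45.1 CPM with Cre and 38.9, 39.5 and 46.8 CPM with empty virus. The lowest stimulated library was above the highest unstimulated one by more than the whole spread of either state. The log2 change of Pmvk was 1.71 ± 0.06 (SE, edgeR adjusted p = 3.96e-19), the highest of the 28 and a 3.27-fold rise. Mvk, the mevalonate kinase that acts just before it, had 74.5, 71.9 and 77.2 CPM in stimulated Cre libraries and 72.1, 71.6 and 72.2 CPM in stimulated empty virus libraries. Without agonist Mvk had 36.5, 37.1 and 40.7 CPM with Cre and 37.2, 33.2 and 37.0 CPM with empty virus. The stimulated libraries lay in a narrow band, and none overlapped the unstimulated ones. Its log2 change was 1.03 ± 0.05 (edgeR adjusted p = 2.15e-19). Mmab, a cobalamin enzyme gene outside the sterol route whose start lies head to head with that of Mvk, had a log2 change of -0.03 ± 0.06 (edgeR adjusted p = 0.785).

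Hmgcs1, the cytosolic HMG-CoA synthase, was the most abundant of the 18 enzyme genes per kb of exon in Gas and moved the other way. It had 825, 794 and 786 CPM in stimulated Cre libraries and 835, 807 and 785 CPM in stimulated empty virus libraries. Unstimulated libraries held 1046, 944 and 959 CPM with Cre and 1000.2, 929 and 1033 CPM with empty virus. All 6 stimulated values were below all 6 unstimulated ones, with a log2 change of -0.24 ± 0.04 (edgeR adjusted p = 1.06e-06). Acat2, the cytosolic thiolase that opens the route, fell by 0.40 on the log2 scale, ranging from 17.1 to 19.97 CPM with agonist and from 20.96 to 27.0 CPM without it. Mvd, the decarboxylase after Pmvk, had a log2 change of 0.12 ± 0.12 and was not called.

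All 4 genes of the isoprenoid and squalene steps fell, each by a small amount. The log2 changes were -0.20 ± 0.05 for Idi1, the isopentenyl diphosphate isomerase, -0.18 ± 0.06 for Fdps, the farnesyl diphosphate synthase, -0.22 ± 0.04 for Fdft1, the squalene synthase, and -0.15 ± 0.04 for Sqle, the squalene epoxidase. Fdft1 and Sqle did not overlap between states, with Sqle at 259.8 to 275 CPM stimulated and 295 to 324 CPM unstimulated. Idi1 and Fdps overlapped. The Fdps call (edgeR adjusted p = 0.0241) was lost in 5 of the 12 fits that left out 1 library, with an adjusted p of up to 0.104.

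Of the 9 genes from lanosterol synthesis to cholesterol, 6 fell and none rose. Lss, the lanosterol synthase, had 95.8, 94.8 and 104 CPM in stimulated Cre libraries and 98.7, 107 and 96.6 CPM in stimulated empty virus libraries. It had 132, 135 and 152 CPM in unstimulated Cre libraries and 144, 119 and 156 CPM in unstimulated empty virus libraries. The states did not overlap, and the log2 change was -0.44 ± 0.06 (edgeR adjusted p = 1.68e-06), the most negative of these 9. Msmo1, a methylsterol oxidase, had 238, 219 and 237 CPM (Cre) and 236, 233 and 226 CPM (empty) with agonist, against 309, 285 and 289 CPM (Cre) and 298, 276 and 294 CPM (empty) without it. Sc5d, a sterol desaturase near the end of the route, had 163, 161 and 167 CPM (Cre) and 173, 162 and 163 CPM (empty) with agonist, against 204, 205 and 220.3 CPM (Cre) and 223, 207 and 240.1 CPM (empty) without it. In both genes every stimulated library was below every unstimulated one, by log2 changes of -0.28 ± 0.04 for Msmo1 and -0.34 ± 0.04 for Sc5d (edgeR adjusted p = 7.58e-08 and 4.48e-09). Hsd17b7, a ketosteroid reductase, fell by 0.36, Dhcr7, a final reductase, by 0.31, and Cyp51, the lanosterol demethylase, by 0.24 on the log2 scale, and none of these 3 overlapped between states. Tm7sf2 (0.06), Nsdhl (-0.05) and Ebp (0.02) were not called and overlapped.

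**Figure D2:**
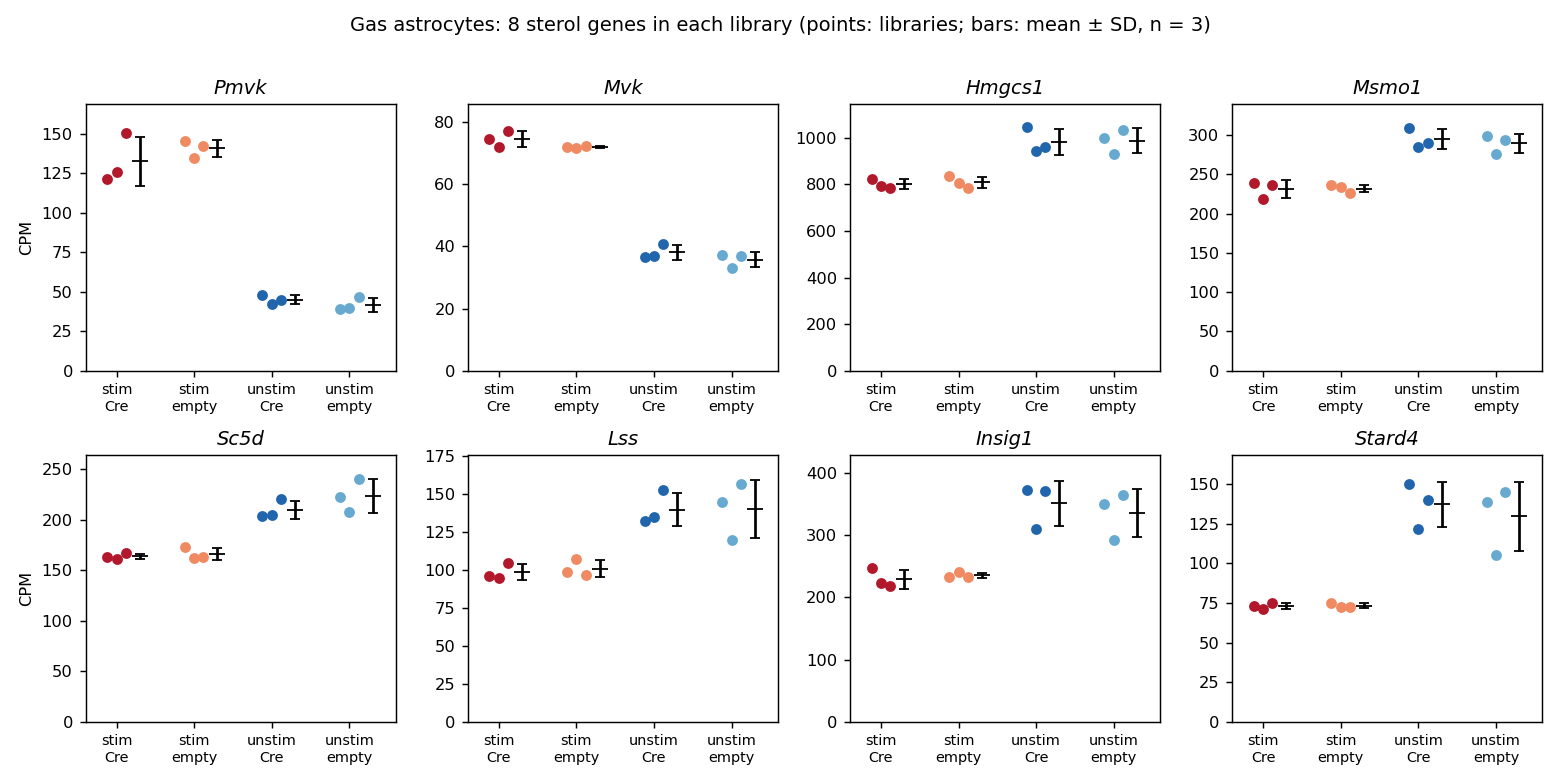
CPM of 8 sterol genes (panels) in every Gas library (points) with mean ± SD of 3 libraries (bars), by group on the x axis; each y axis starts at 0. Pmvk and Mvk were higher in all 6 stimulated libraries and the other 6 genes were lower, with no overlap in any panel.

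In the SREBP system 2 of 5 genes fell. Insig1 had 247, 223 and 217 CPM in stimulated Cre libraries and 233, 241 and 232 CPM in stimulated empty virus libraries. Unstimulated libraries held 373, 309 and 372 CPM with Cre and 349.6, 292 and 365 CPM with empty virus. All 6 stimulated libraries lay below all 6 unstimulated ones, and the log2 change was -0.52 ± 0.06 (edgeR adjusted p = 2.31e-06). Insig2, the second Insig gene, had a log2 change of -0.02 ± 0.05 and was not called. Srebf1 had 177 to 188 CPM with agonist and 191 to 218 CPM without it, a log2 change of -0.10 ± 0.04 (edgeR adjusted p = 0.0326). That call was lost in 8 of 16 alternative analyses, with an adjusted p of up to 0.117. Srebf2 (-0.04 ± 0.03) and Scap (0.09 ± 0.04, edgeR adjusted p = 0.0599) were not called.

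Among the 5 genes of transport, receptor turnover and LXR, Stard4 and Mylip fell and Nr1h2 rose. Stard4, a soluble sterol carrier, had 73.4, 71.3 and 75.1 CPM in stimulated Cre libraries and 75.2, 72.3 and 72.2 CPM in stimulated empty virus libraries. Unstimulated libraries held 150.1, 122 and 140.1 CPM with Cre and 139, 105 and 145 CPM with empty virus. Stimulated libraries lay within a narrow band well below all the others, and the log2 change of -0.82 ± 0.07 (edgeR adjusted p = 1.09e-06) was the most negative of the 28. Mylip, a ubiquitin ligase that marks lipoprotein receptors for degradation, had 2.31 to 4.18 CPM with agonist and 4.84 to 6.54 CPM without it (log2 change -0.70 ± 0.13, edgeR adjusted p = 9.45e-05). Nr1h2, which encodes LXR-beta, had 55.98 to 64.1 CPM with agonist and 53.8 to 61.3 CPM without it, so its states overlapped. Its log2 change was 0.13 ± 0.05 (edgeR adjusted p = 0.0373), and the call was lost in 7 of the 12 fits that left out 1 library, with an adjusted p of up to 0.111. The cholesterol exporters Abca1 (0.03 ± 0.04) and Abcg1 (-0.01 ± 0.12) were not called.

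Markers of cell types were also called in the same contrast, to be read against the 23.3% of all genes called (11.7% higher and 11.5% lower). Of the markers tested in Gas, 4 of 10 for astrocytes rose, 3 of 9 for the oligodendrocyte lineage rose and 1 fell, and 3 of 10 for microglia rose and 1 fell. For fibroblasts 2 of 8 rose and 1 fell, for neurons 1 of 6 rose, for lung epithelium 1 of 2 rose, for smooth muscle 1 of 4 fell, and none of 4 for endothelium or of 1 for mesothelium was called. Summed astrocyte markers held 9747 to 10769 CPM with agonist and 9724 to 10299 CPM without it, and summed microglial markers 248 to 267 and 235 to 262 CPM. Summed oligodendrocyte markers held 985 to 1132 CPM with agonist and 975 to 1189 CPM without it, and summed fibroblast markers 1553 to 1959 and 1594 to 1985 CPM. The sums overlapped in each case, and their part in the sterol changes was not tested.

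Genes of neighbouring lipid pathways were also counted in stimulated astrocytes, where 23.3% of all genes were called. The lists are short, and their counts were not tested against that share. Of 14 fatty acid synthesis and desaturation genes 1 rose, the elongase Elovl5 (0.24 ± 0.04), and 1 fell, the fatty acid synthase Fasn (-0.34 ± 0.05), with a list median of -0.02. None of 10 genes listed as other mevalonate branches was called, and their median was -0.01. The list covers ubiquinone, dolichol and protein prenylation, and also holds Mmab, the cobalamin enzyme gene named above. Of 20 genes of sterol storage, transport and oxysterols 4 fell and 2 rose, with a median of -0.02. The largest of these was Ch25h, the hydroxylase that makes an oxysterol from cholesterol, which had 2.54, 2.25 and 1.74 CPM (Cre) and 2.10, 2.68 and 3.32 CPM (empty) with agonist. Without agonist Ch25h had 5.82, 7.07 and 7.03 CPM (Cre) and 7.52, 5.66 and 7.70 CPM (empty), which gave a log2 change of -1.42 ± 0.14 (edgeR adjusted p = 1.92e-10). Gramd1b, a sterol carrier between plasma membrane and endoplasmic reticulum, changed by -0.31 ± 0.05, and Soat1, which esterifies cholesterol for storage, by -0.14 ± 0.04. The other calls, named after their values were seen, were Osbp (-0.11), Vldlr (0.17) and Lrp8 (0.11).

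In Gai fibroblasts given TRAP-6, 2 of the 28 genes fell and none rose, where 1.12% of all genes tested were called and 0.388% were lower. Insig1 had 170.3, 159 and 166 CPM in stimulated Cre libraries and 153, 151 and 145 CPM in stimulated empty virus libraries. It had 201, 200.03 and 212 CPM in unstimulated Cre libraries and 177, 205 and 174 CPM in unstimulated empty virus libraries. All 6 stimulated libraries lay below all unstimulated ones (0.895% of all genes), with a log2 change of -0.29 ± 0.05 (edgeR adjusted p = 0.00417). Stard4 had 55.7, 49.3 and 46.8 CPM (Cre) and 43.6, 46.4 and 44.5 CPM (empty) with TRAP-6, against 60.9, 59.8 and 66.0 CPM (Cre) and 54.3, 57.8 and 53.6 CPM (empty) without it. Stard4 overlapped between states in 1 stimulated Cre library, and its log2 change was -0.28 ± 0.05 (edgeR adjusted p = 0.00933). Of the 28 estimates 22 were below 0, against 50.7% of all genes tested, with a median of -0.07. The most negative, Hsd17b7 (-0.36 ± 0.11, edgeR adjusted p = 0.207), and Fdft1, the squalene synthase gene (-0.26 ± 0.06, edgeR adjusted p = 0.0594), were not called. DESeq2 called 4 members, Fdft1 and Hsd17b7 besides Insig1 and Stard4. In edgeR with no filter on low counts or with the replicate number as a block the count was also 4. Leaving out replicate 1 of stimulated Cre gave 5.

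In Gaq fibroblasts none of the 28 genes was called in the TRAP-6 response by the main edgeR fit or by DESeq2. The main fit called 5.61% of all genes tested (3.78% higher), and 1 member, Pmvk, had an unadjusted p under 0.05. In edgeR with no filter on low counts 1 member was called, and with the replicate number as a block 3 were. Pmvk had 4.44, 5.38 and 6.93 CPM (Cre) and 5.69, 7.27 and 6.50 CPM (empty) with TRAP-6, against 3.91, 4.80 and 4.82 CPM (Cre) and 5.46, 4.13 and 6.05 CPM (empty) without it. These values overlapped, and the log2 estimate was 0.35 ± 0.13 (edgeR adjusted p = 0.135). Leaving out replicate 3 of unstimulated empty virus gave 1 call, Hmgcs1.

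In Ga13 fibroblasts 1 gene rose and 1 fell, where 8.38% of all genes tested were called, 4.69% higher and 3.69% lower, and 9 of the 28 had an unadjusted p under 0.05. Pmvk had 5.41, 7.01 and 6.78 CPM (Cre) and 6.15, 5.69 and 6.63 CPM (empty) with TRAP-6, against 4.89, 4.49 and 3.90 CPM (Cre) and 4.33, 5.12 and 6.61 CPM (empty) without it. It overlapped between states through 1 unstimulated library, and its log2 change was 0.41 ± 0.12 (edgeR adjusted p = 0.0241). Abca1, the cholesterol exporter, had 139, 143 and 139.6 CPM (Cre) and 135, 132 and 146 CPM (empty) with TRAP-6, against 147, 148 and 157 CPM (Cre) and 152, 149.9 and 162 CPM (empty) without it. Abca1 and Srebf1 were lower in all 6 stimulated libraries than in all unstimulated ones (3.57% of all genes). The change of Abca1 was small, -0.10 ± 0.03 in log2 with an edgeR adjusted p of 0.0497, and that of Srebf1 was -0.07 ± 0.03 and not called. Both calls depended on the analysis: that of Abca1 was lost in 13 of 16 alternatives, DESeq2 included (adjusted p = 0.0618), and that of Pmvk in 6 of them, each time by leaving out 1 library. The count of members called ran from 0 to 4 when 1 library was left out, and the 4 came without replicate 1 of stimulated Cre. With the replicate number as a block 8 members were called, of which 6 rose and the rest fell. The log2 changes of the 8 genes described library by library in astrocytes ran from -0.29 to 0.11 in Gai, from -0.11 to 0.35 in Gaq and from -0.24 to 0.41 in Ga13, with Mvk at -0.02, 0.03 and 0.14 in that order. The low end was Insig1 in each of these lines. At -0.11 in Gaq and -0.24 in Ga13 it was the most negative of the 28 there, though not called. The log2 changes of Abca1 were -0.01 in Gai and 0.03 in Gaq.

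The TRAP-6 response of the 3 fibroblast lines was compared in 1 fit of their 36 libraries. None of the 28 genes was called as different between lines by the main edgeR fit or by DESeq2, where the main fit called 0.299% of 16749 genes. In edgeR with no filter on low counts 1 member was called, and with the replicate number as a block 3 were. At an unadjusted p under 0.05 there were 6 members (6.50% of all genes). Hsd17b7 had the smallest adjusted p, 0.113, with log2 changes of -0.36 ± 0.11 in Gai, 0.11 ± 0.06 in Gaq and 0.13 ± 0.05 in Ga13. For Insig1, called in the Gai response but not in the other fibroblast lines, the edgeR adjusted p of this comparison was 0.940. Leaving out replicate 1 of Gai stimulated Cre or replicate 3 of Gai unstimulated empty virus gave 1 call each. The isoproterenol and TRAP-6 responses differ in cell type, agonist and line together, so these cannot be told apart.

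In the main fits 1 of the 28 genes was called over the 8 comparisons of Cre virus, which turned the biosensor on, with empty virus. That gene was Abca1 in Gaq fibroblasts given TRAP-6, where 3.41% of all genes tested were called and 1.42% were lower. A count of 1 in 28 is close to the 3.41% of all genes. Abca1 had 142, 141 and 157 CPM in stimulated Cre libraries and 177, 175 and 187 CPM in stimulated empty virus libraries. The groups did not overlap, and the log2 change was -0.28 ± 0.06 (edgeR adjusted p = 0.00314). Without agonist it had 151, 151 and 156 CPM with Cre and 170.5, 155 and 195 CPM with empty virus, which overlapped (log2 -0.18 ± 0.06, edgeR adjusted p = 0.111). Without replicate 2 of the unstimulated empty virus group Abca1 was called there too. The difference between the responses with Cre and with empty virus was -0.11 ± 0.08 for Abca1 (edgeR adjusted p = 0.863). Cell type markers were called in the same stimulated comparison, where 1.99% of all genes were higher with Cre: 5 of 9 for fibroblasts (Fbln1, Col1a1, Lum, Col1a2 and Col3a1), 2 of 5 for smooth muscle and 1 of 5 for mesothelium were higher, as was 1 of 8 for astrocytes, and of 6 for the oligodendrocyte lineage 1 was higher and 1 lower. None of the markers tested for microglia, neurons, endothelium or lung epithelium was called. Summed fibroblast markers held 41529 to 46542 CPM in stimulated Cre and 36089 to 36600 CPM in stimulated empty virus libraries, with no overlap, and 41895 to 44818 CPM in unstimulated Cre and 36415 to 39027 CPM in unstimulated empty virus libraries. Their part in the Abca1 difference was not tested.

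In the other Cre comparisons the main edgeR fits and DESeq2 called none of the 28 genes. In unstimulated Gaq cells edgeR called 1 member with no filter on low counts and 1 with the replicate number as a block. With agonist, 2 members in Gas, 2 in Gai and 1 in Ga13 had an unadjusted p under 0.05, where 0.0166%, 0.0% and 0.0379% of all genes were called. Without agonist the numbers were 0 in Gas, 2 in Gai, 2 in Gaq and 1 in Ga13, where 0.00552%, 0.0%, 2.65% and 0.00632% of all genes were called. In the stimulated Gaq comparison 4 members had such a p, and leaving out replicate 3 of stimulated Cre added a call of Acat2. With the replicate number as a block 3 members were called there. No member was called by the main edgeR fits or by DESeq2 in the difference between responses in any line. There the main fits called 0.0% of all genes in Gas and in Gai, 0.161% in Gaq and 0.0821% in Ga13. In the same order 1, 0, 2 and 3 members had an unadjusted p under 0.05. With the replicate number as a block 1 member was called in Ga13. For Abca1 the log2 change of Cre over empty virus with agonist was -0.13 ± 0.06 in Gas, 0.04 ± 0.05 in Gai and 0.03 ± 0.04 in Ga13. In Gas 1 stimulated Cre library, at 935 CPM, lay below the others.

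**Figure D3:**
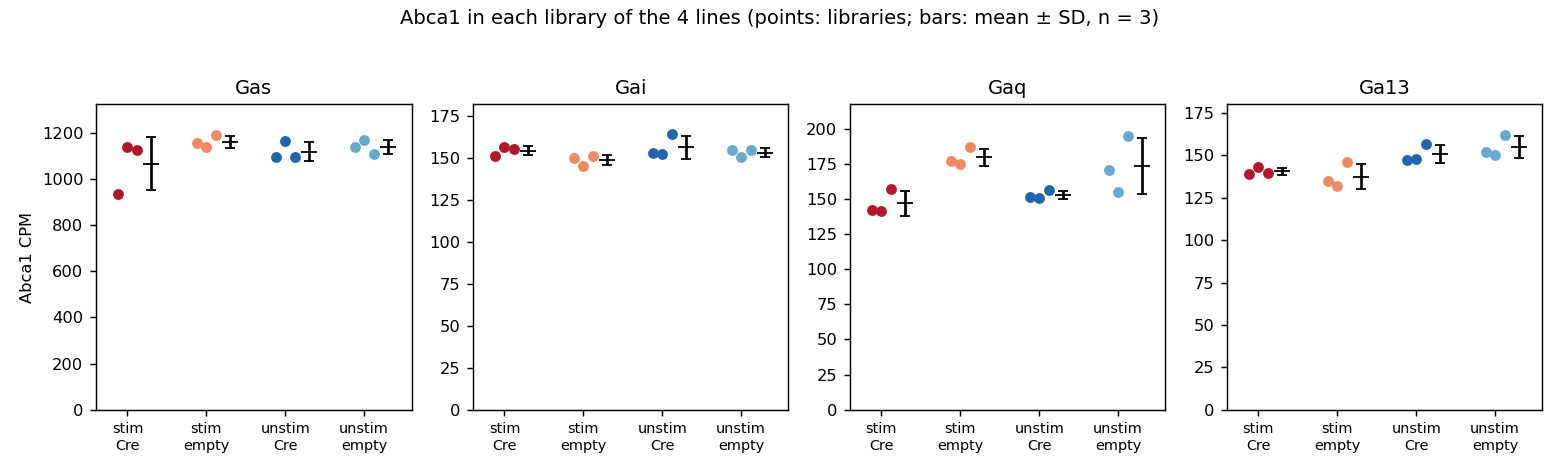
Abca1 in CPM (y axis, from 0) in every library of the 4 lines (points) with mean ± SD of 3 libraries (bars), by group on the x axis. In Gaq the stimulated Cre libraries at 141 to 157 CPM lie below the stimulated empty virus libraries at 175 to 187 CPM.

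At rest most of the sterol genes had higher levels in astrocytes than in fibroblasts. In unstimulated empty virus libraries, 23 of the 28 genes were higher in every Gas library than in all 9 fibroblast libraries and 1, Nr1h2, was lower, where 54.8% of the 17344 genes that reached 1 CPM in some library were higher and 18.3% lower. Per kb of exon, the highest level in Gas was that of Hmgcs1 at 215 ± 11.6 CPM per kb (SD, n = 3), followed by Abca1 at 109.9 and Insig1 at 108. The last 2 were too close to be ordered by their spread. In all 3 fibroblast lines Insig1 was highest, at 59.9 CPM per kb in Gai, 48.1 in Gaq and 55.3 in Ga13. The Gas mean of Hmgcs1 was 4.84 times that of Gai, 12.5 times that of Gaq and 8.85 times that of Ga13. Tm7sf2, a sterol reductase, Abca1 and Dhcr7 also differed widely, at 7.56, 7.45 and 6.28 times the Gai level. Insig2 was nearly level, at 11.99 CPM per kb in Gas, 12.5 in Gai, 12.2 in Gaq and 11.7 in Ga13, and so was Ebp, at 7.46, 6.67, 6.97 and 7.60. Abcg1 and Mylip were the scarcest in Gas, at 0.757 and 1.83 CPM per kb. The lines differ in tissue and in table, so these levels are a description.

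**Figure D4:**
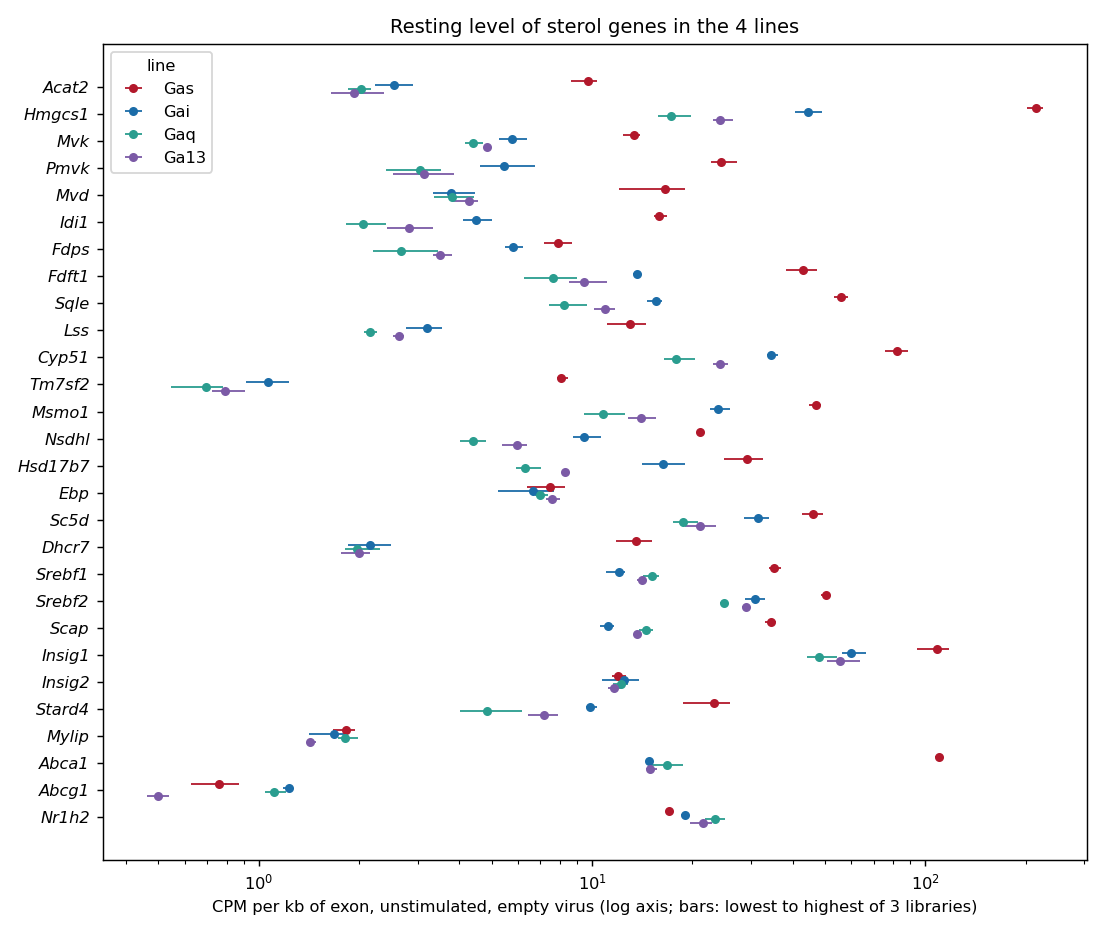
CPM per kb of exon (log x axis) of the 28 genes (y axis) in unstimulated empty virus libraries of the 4 lines; points are means and bars run from the lowest to the highest of 3 libraries. Gas points lie to the right for most genes, Gai points lie right of Gaq and Ga13 for many synthesis genes, and Insig2, Ebp and Mylip lie close together.

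Among the fibroblast lines, 15 of the 28 genes were higher in every Gai library than in all Gaq and Ga13 libraries, against 12.0% of all genes. Of the 15, 14 encode synthesis enzymes and the other is Stard4. The Gai mean was 2.59 times that of Gaq and 1.97 times that of Ga13 for Hsd17b7, and 2.58 and 1.83 times for Hmgcs1. Srebf1 and Scap were not among them, at 0.792 and 0.772 times the Gaq mean. Marker levels differed between the same groups: summed fibroblast markers held 28555 to 39309 CPM in Gai, 36415 to 39027 in Gaq and 46673 to 48543 in Ga13. Summed microglia and macrophage markers held 176 to 213 CPM in Gai, 74.0 to 93.5 in Gaq and 39.8 to 47.5 in Ga13. Whether these differences had a part in the sterol levels was not tested.

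The 18 synthesis genes were also summed in each library. The sum is weighted towards abundant genes and is not a fall or rise of every gene. Hmgcs1 alone averaged 802 CPM in stimulated and 983 CPM in unstimulated Cre libraries of Gas. The rises of Mvk and Pmvk in Gas are also within the sum. The sum in Gas was 2610 ± 37.4 CPM in stimulated and 3026 ± 131 CPM in unstimulated Cre libraries, and 2644 ± 36.2 CPM in stimulated and 3057 ± 206 CPM in unstimulated empty virus libraries (SD, n = 3 each), with no overlap between states. In Gai it was 1011 ± 126 and 919 ± 59.7 CPM with TRAP-6 (Cre and empty) and 1087 ± 45.7 and 1055 ± 73.0 CPM without it, and the states overlapped. The Gai replicate 1 of stimulated Cre stood at 1156 CPM, while the other two of its group had 927 and 950.5 CPM. In Gaq group means ran from 526 to 555 CPM, and in Ga13 from 632 to 705 CPM.

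In Gaq and Ga13 the library numbered 3 had the highest summed level of the synthesis genes in every group. Their summed level was 588, 594, 584 and 611 CPM in Gaq (stimulated Cre, stimulated empty, unstimulated Cre, unstimulated empty), and the highest of the other 8 was 549.98 CPM. In Ga13 they had 755, 754, 687 and 742 CPM, each the highest of its group, but replicate 2 of stimulated Cre, at 716 CPM, was above replicate 3 of unstimulated Cre. Replicate 3 had the highest of the 3 CPM values in all 4 groups for 12 of the 28 genes in Gaq and for 9 in Ga13, where 5.93% and 4.8% of all genes tested did so. Fdft1, Cyp51, Msmo1, Insig1, Srebf2 and Stard4 were in both counts. In Gas the counts for replicates 1, 2 and 3 were 1, 0 and 1 (1.96%, 1.39% and 1.97% of all genes), and in Gai they were 4, 0 and 0 (12.1%, 1.29% and 1.18% of all genes). The labels do not say what a replicate number stands for.

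**Figure D5:**
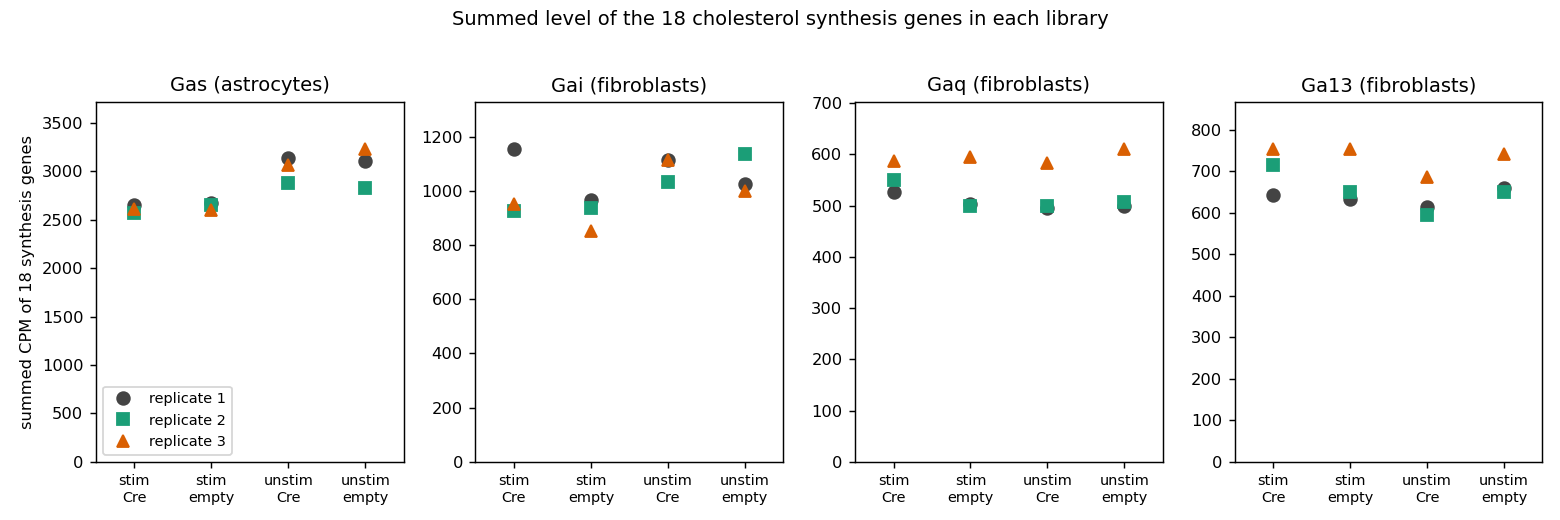
Summed CPM of the 18 synthesis genes (y axis, from 0) in every library of the 4 lines by group (x axis), with the marker showing the replicate number. In Gas all 6 stimulated libraries, at 2573 to 2677 CPM, lie below all unstimulated ones at 2831 to 3234 CPM, and in Gaq and Ga13 the triangles of replicate 3 are highest in each group.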

How the data were processed

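The deposited values are raw counts of reads per gene, in 1 table for each line, as the authors made them. Per the submitters' processing notes, reads were handled with fastp, Subread and featureCounts on build GRCm39; versions, gene annotation and strand setting are not given in the sources used here. In GENCODE M21 (GRCm38) annotation, 9 of the 28 members share exon bases with another gene (Hmgcs1, Idi1, Fdps, Fdft1, Lss, Cyp51, Tm7sf2, Srebf1 and Scap), 3 of them on the same strand, so their counts are uncertain. Exon lengths per kb come from the same annotation.

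Each line was fitted on its own in R 4.3.3 with edgeR 4.0.16: filterByExpr by group (18103 genes in Gas, 15980 in Gai, 15528 in Gaq and 15835 in Ga13), TMM scaling, 1 mean per group and the robust quasi-likelihood test, two-sided, with Benjamini-Hochberg adjustment over all genes and a threshold of 0.05. The biosensor entry stayed in library totals and out of the tests. SE is the log2 change over the root of F. Alternatives were DESeq2 1.42.0, its size factors in edgeR, no filter, the replicate number as a block, and leaving out each library.

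Values per library are given for the members called in a response (up to 8 per line by smallest p) or in a Cre comparison. Up to 3 called genes of each other list, and further ones where stated, are given by log2 change. Of these, Ch25h in Gas is also given per library. Members and lists were chosen with earlier results of these data known. A list of SREBP processing genes is not reported here. Same-numbered libraries correlated in their deviations from group means by -0.02 to 0.10 in Gas, 0.03 to 0.37 in Gai, -0.02 to 0.09 in Gaq and -0.01 to 0.09 in Ga13. Not every such pair was above 0.1, and the numbers were therefore not taken as pairs in the main fits. Many libraries still correlated best with their own number. With the replicate number as a block more members were called in the fibroblast responses, as given below.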

Additional observations from a re-analysis of the deposited data

How the results depend on the processing

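Of the 24 changes called among the members, 19 kept direction and call in all 16 alternatives and none reversed; the 5 that lost the call in some were Srebf1, Nr1h2 and Fdps in Gas and Pmvk and Abca1 in Ga13. Where counts moved by over 1.5 times the cause was not tested. In the Gai response 2 calls became 4 with no filter, 4 with the replicate block and 4 with DESeq2. In the Gaq response 0 became 1 with no filter and 3 with the replicate block. For Cre in unstimulated Gaq cells 0 became 1 with no filter and 1 with the replicate block, and for Cre in stimulated Gaq cells 1 became 3 with the replicate block. In the Ga13 response 2 became 1 with DESeq2 size factors and 8 with the replicate block, of which 6 rose and 2 fell. The Ga13 difference between responses gave 1 with the replicate block, and the difference between fibroblast lines gave 1 with no filter and 3 with the replicate block. The replicate block gave 20 calls against 19 in the Gas response and left the count as it was in the other comparisons. The block was not the main analysis because the labels do not say what a number stands for and not every same-numbered pair correlated above 0.1. All 6 pairs of replicate 1 in Gai did, at 0.30 to 0.37. All 4 libraries numbered 3 in Gas, Gaq and Ga13, and all 4 numbered 1 in Gas and Gai and 2 in Ga13, correlated on average best with their own number in the other groups, while in Gai 0 of 4 numbered 2 and 1 of 4 numbered 3 did.

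Leaving out 1 library at a time gave 16 to 20 calls in the Gas response and 2 to 5 in the Gai response (5 without replicate 1 of stimulated Cre). It gave 0 to 1 in the Gaq response (1 without replicate 3 of unstimulated empty), 0 to 1 for Cre in unstimulated Gaq cells (1 without replicate 2 of unstimulated empty) and 1 to 2 for Cre in stimulated Gaq cells (2 without replicate 3 of stimulated Cre). In the Ga13 response it gave 0 to 4: 4 without replicate 1 of stimulated Cre, 0 without replicates 1 or 2 of unstimulated empty or 2 or 3 of stimulated Cre, and 1 without replicates 1, 2 or 3 of unstimulated Cre or 2 of stimulated empty. The difference between lines gave 0 to 1 over 36 fits, with 1 without replicate 1 of Gai stimulated Cre and 1 without replicate 3 of Gai unstimulated empty. Of 6784 values of members not called, 496 changed sign and 42 were called under an alternative. The precision is limited by 3 libraries a group and, for some genes, by low levels. In Gas, Mylip, Abcg1 and the listed gene Ch25h lay below 8 CPM in every library. In Gaq and Ga13, so did Pmvk, Tm7sf2, Acat2 and Mylip.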

Other observations

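In the fibroblast lines, genes around the sterol route were also counted in the TRAP-6 response. Of 14 fatty acid synthesis and desaturation genes, 2 rose in Gaq and 2 in Ga13, where 3.78% and 4.69% of all genes were higher. They were the elongase Elovl5, with log2 changes of 0.15 ± 0.04 in Gaq and 0.11 ± 0.03 in Ga13, and Gpam, an acyltransferase of glycerolipid synthesis, with 0.17 ± 0.05 in Gaq and 0.24 ± 0.04 in Ga13. Of 20 genes of sterol storage, transport and oxysterols, 2 rose in Ga13, namely Soat1 (0.11 ± 0.03) and Ch25h (0.16 ± 0.03, edgeR adjusted p = 0.000399), while Ch25h fell in Gas astrocytes (-1.42 ± 0.14). The difference between these responses was not tested. None of the genes of other mevalonate branches was called in Gai, Gaq or Ga13, and in Gai, where 1.12% of all genes were called, none of these 3 lists had a call.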
